A study of Mus musculus with 12 samples.

Results

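Regulators of G protein signalling (Rgs proteins) were followed in CD4+ T cells from mice with and without a tumour. The set was fixed by gene symbol as Rgs1, Rgs2, Rgs3, Rgs10, Rgs14, Rgs16, Rgs18 and Rgs19, which are 8 of the 24062 genes in the deposited count table. The study sequenced poly(A) RNA of GFP-positive regulatory T cells (Treg) and GFP-negative conventional T cells (Tconv), all CD4+ and from C57BL/6 mice. Tumour-bearing (TB) mice had been given 500000 TC-1 cells, a mouse lung epithelial line transformed with papillomavirus oncogenes and Ras, into a tail vein 3 weeks before tissues were taken. There were 6 groups of 2 libraries: tumour Treg, tumour Tconv, TB spleen Treg, TB spleen Tconv, and Treg and Tconv from the spleen of normal mice. The labels do not name the gene that drives GFP, and do not say whether a library is a single mouse or a pool, so p-values measure the spread between these libraries only.

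Rgs proteins bind the active, GTP-loaded alpha subunit of a heterotrimeric G protein and speed up its GTP hydrolysis, which shortens the signal from a G protein coupled receptor. In lymphocytes most such receptors sense chemokines, sphingosine 1-phosphate, lipids, nucleotides or prostaglandins. Rgs proteins of these cells are therefore known mainly as regulators of migration and retention. Rgs1, Rgs2, Rgs3, Rgs16 and Rgs18 belong to the R4 subfamily and act on Gi and Gq alpha subunits, with Rgs2 selective for Gq. Rgs10 and Rgs14 act on Gi, and Rgs19 on Gi and Gz.

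The 12 libraries held 18624132 to 24111546 counts each, and levels are given in CPM, a gene's count scaled to a fixed library size, here with TMM factors. Foxp3, the Treg transcription factor, stood at 1016 to 1201 CPM as group means in Treg and at 13.8 to 18.9 CPM in Tconv, so the sort matched its labels. The tumour libraries also carried RNA of other cells: 12 macrophage and monocyte markers summed to 194 to 484 CPM there, against 7.54 to 21.3 CPM in spleen. The 12 fibroblast and pericyte markers summed to 233 to 559 CPM in tumour libraries and 1.30 to 3.39 CPM in spleen, where 3 to 8 of the 12 were at 0. Lung and tumour epithelium markers summed to 93.2 to 169.8 CPM in tumour and 3.19 to 29.6 CPM in spleen. The 24 immediate early and dissociation stress genes (Fos, Jun, Egr1 and others) summed to 11785 to 15818 CPM in tumour and 2455 to 4367 CPM in spleen. These sums differed between the sites in every tumour against spleen comparison below, and their part in those results was not tested. In bulk RNA, fewer cells of a type and less RNA per cell cannot be told apart.

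Of the 8 genes, 4 lie on chromosome 1 in mm10 (GENCODE M21 models). Rgs2 (chr1:143999338-144004161, minus strand), Rgs1 (chr1:144242296-144249242, minus) and Rgs18 (chr1:144752683-144775435, minus) sit in a 776 kb stretch whose only other protein-coding genes are Rgs13 and Rgs21. Within that stretch Rgs2 had 110705 counts and Rgs1 76953 over the 12 libraries, Rgs18 had 24, and Rgs13 and Rgs21 had 0 in every library. Neighbouring genes of 1 family thus differed from abundant to undetected in the same cells. Rgs16 (chr1:153740349-153745468, plus) lies in a separate 191 kb stretch with Rgs8 and Rgsl1, which had 191 and 13 counts. A GENCODE antisense gene, Gm28513, shares 236 bp (10.1%) of the exonic bases of Rgs16, and since no source used here states how strand was handled in counting, reads over it cannot be assigned. The other members are Rgs3 (chr4:62559847-62704001, plus), Rgs10 (chr7:128373621-128418758, minus), Rgs14 (chr13:55369732-55384687, plus) and Rgs19 (chr2:181688419-181693977, minus).

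RefSeq promoter sequence (GRCm38.p6, 250 bases before to 50 after a start site) was at hand for 5 of the 8 members. The windows of Rgs2 and Rgs16, which rose in tumour T cells of both kinds, are shown to let their elements be compared. Capitals mark the core of the cyclic AMP response element or CRE (TGACG or CGTCA), the CCAAT box (CCAAT or ATTGG) and the GC box (GGGCGG or CCGCCC).
Rgs2 (chr1:144004100-144004399, minus strand): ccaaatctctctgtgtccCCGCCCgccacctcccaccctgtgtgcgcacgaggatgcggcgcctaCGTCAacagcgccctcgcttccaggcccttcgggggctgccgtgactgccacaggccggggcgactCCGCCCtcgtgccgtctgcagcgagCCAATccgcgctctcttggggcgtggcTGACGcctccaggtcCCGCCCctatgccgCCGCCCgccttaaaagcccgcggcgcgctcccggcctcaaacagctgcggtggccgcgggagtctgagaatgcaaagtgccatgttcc
Rgs16 (chr1:153740103-153740402, plus strand): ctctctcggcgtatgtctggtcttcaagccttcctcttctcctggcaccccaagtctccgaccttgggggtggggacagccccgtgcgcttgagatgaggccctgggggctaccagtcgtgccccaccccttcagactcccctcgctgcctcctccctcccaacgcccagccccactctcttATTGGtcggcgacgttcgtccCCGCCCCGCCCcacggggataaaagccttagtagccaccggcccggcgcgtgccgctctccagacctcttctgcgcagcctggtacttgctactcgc
The Rgs2 window held 2 CRE cores, 1 CCAAT box and 4 GC boxes, and the Rgs16 window 1 CCAAT box and 2 GC boxes that run into each other. Of 32851 RefSeq promoters of the same length, 20.8% held a CRE core, 37.4% a CCAAT box and 35.7% a GC box on either strand, so none of these letters is rare. The full CRE (TGACGTCA, which contains the core), the AP-1 site (TGACTCA) and the NFAT core (TGGAAA) were in none of the 8 windows of these 5 genes, and in 1.79%, 5.20% and 21.4% of all promoters.

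**Figure D1:**
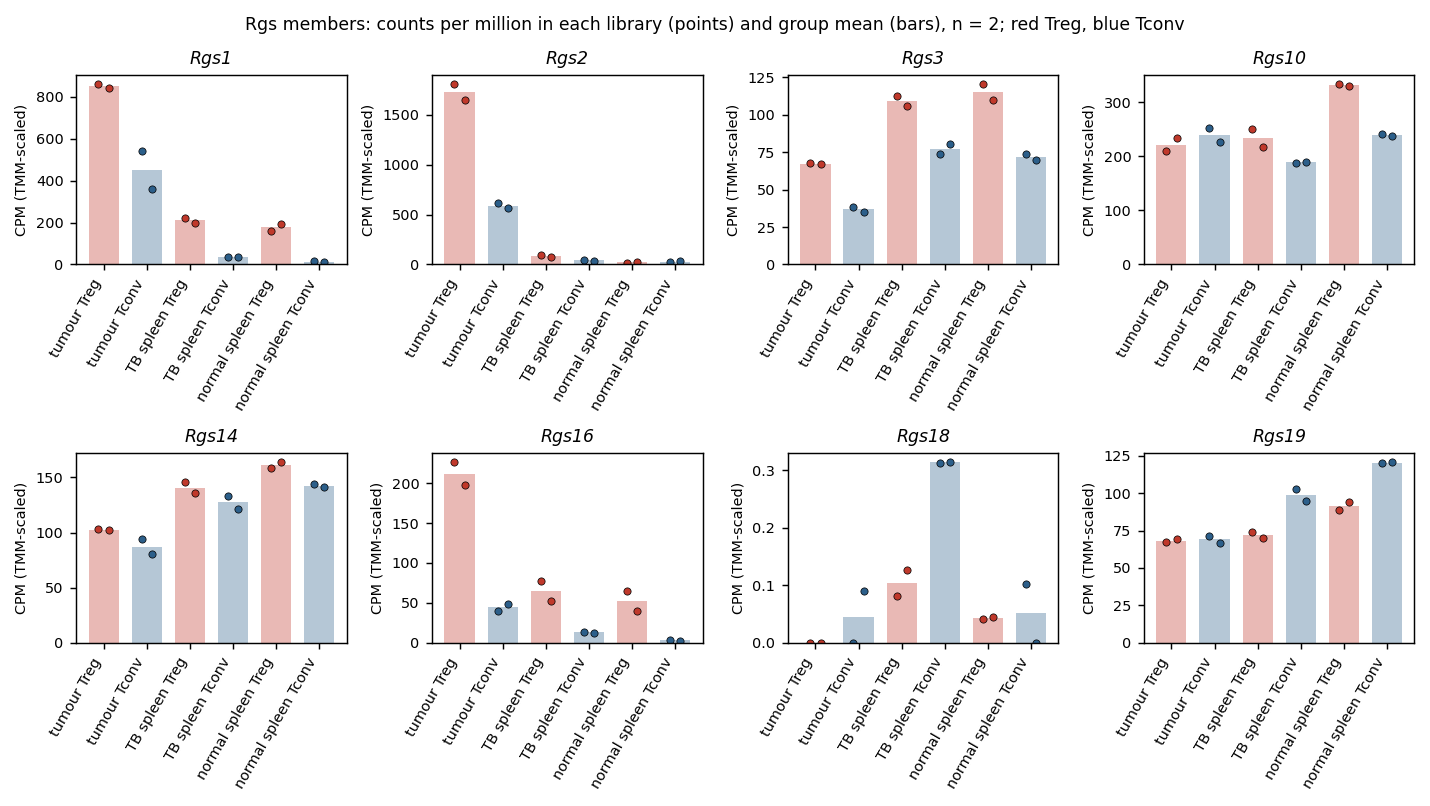
Level of each Rgs member by group, in CPM on a linear axis from 0, with a point for each of the 12 libraries and a bar for the mean of the 2 libraries of a group (red Treg, blue Tconv). Rgs1, Rgs2 and Rgs16 stand highest in tumour Treg, Rgs3, Rgs10, Rgs14 and Rgs19 highest in normal spleen, and Rgs18 stays under 0.32 CPM.

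The first question was how the genes differed between T cells in the tumour and T cells of the same sort in the spleen of TB mice. No group held T cells from a tumour-free organ other than the spleen. An effect of the tumour and a difference between organs therefore cannot be told apart in these comparisons. Rgs2, Rgs1 and Rgs16 rose in tumour Treg and in tumour Tconv, while Rgs3 and Rgs14 fell in both. Rgs19 was called lower and Rgs10 higher in tumour Tconv, neither was called in tumour Treg, and the tests of these differences between the cell types stand with the interaction term. In Treg, 3 of the 7 members that passed the filter on low counts rose and 2 fell, where 32.8% of the 13509 tested genes rose and 28.7% fell (a call is an adjusted p under 0.05 in edgeR's quasi-likelihood test). In Tconv 4 rose and 3 fell, where 26.4% of tested genes rose and 22.8% fell. The median log2 fold change of the members was -0.08 in Treg and 0.34 in Tconv, beside 0.02 and 0.00 over all tested genes, so the set had no common direction.

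Rgs2, the Gq-selective member that can also inhibit adenylyl cyclase, had 1813 and 1651 CPM in the tumour Treg libraries and 91.9 and 78.3 CPM in those of TB spleen Treg. In Tconv it had 618 and 561 CPM in tumour and 41.9 and 38.2 CPM in TB spleen. All 4 tumour libraries were above all 8 spleen libraries, with no overlap. The log2 fold change was 4.35 ± 0.11 (SE) in Treg, which is 20.4-fold (edgeR adjusted p = 5.14e-11), and 3.88 ± 0.11 in Tconv, which is 14.7-fold (adjusted p = 2.03e-10). Among the 8664 better-counted genes (average log2 CPM 3 or more), 7 had a larger increase in Treg and 15 in Tconv, and among all 13509 tested genes, low counts included, 833 and 1064 did.

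Rgs1, which acts on Gi and Gq and restrains chemokine responses of lymphocytes, had 863 and 841 CPM in tumour Treg and 221 and 199.7 CPM in TB spleen Treg. In tumour Tconv its values were 541 and 360.2 CPM, and both TB spleen Tconv libraries stood at 34.7 CPM. The tumour and spleen libraries of each cell type were apart, but the tumour Tconv pair differed from each other more than any other pair for this gene. The library of that pair with less Rgs1 had more macrophage and monocyte marker RNA (484 against 194 CPM summed) and less immediate early RNA (13670 against 15818 CPM). It also had more fibroblast and pericyte marker RNA (559 against 233 CPM) and more neutrophil marker RNA (25.6 against 12.3 CPM). The part of these in the Rgs1 difference was not tested. Rgs1 rose 4.05-fold in Treg (log2 2.02 ± 0.16, adjusted p = 6.16e-07) and 13.0-fold in Tconv (log2 3.70 ± 0.18, adjusted p = 1.23e-08).

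Rgs16, induced by activation in T cells and active on Gi and Gq, had 227 and 197 CPM in tumour Treg and 77.0 and 52.6 CPM in TB spleen Treg. In Tconv the values were 40.1 and 49.0 CPM in tumour and 13.4 and 12.3 CPM in TB spleen. The groups compared did not overlap, although tumour Tconv lay below both spleen libraries of TB Treg. The log2 fold change was 1.71 ± 0.21 in Treg (adjusted p = 2.17e-05) and 1.79 ± 0.24 in Tconv (adjusted p = 7.68e-05).

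Rgs3, another member active on Gi and Gq, went the other way. It had 67.6 and 66.9 CPM in tumour Treg against 112 and 106 CPM in TB spleen Treg, and 38.5 and 35 CPM in tumour Tconv against 74.0 and 80.4 CPM in TB spleen Tconv. Each pair of tumour libraries was below its spleen pair, and Rgs3 fell by 0.70 ± 0.07 on the log2 scale in Treg (adjusted p = 7.88e-06) and by 1.07 ± 0.08 in Tconv (adjusted p = 5.52e-07).

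Rgs14, which carries Ras-binding domains and a GoLoco motif for inactive Gi beside its Rgs domain, had 103 and 102 CPM in tumour Treg and 146 and 136 CPM in TB spleen Treg. Its tumour Tconv libraries had 93.9 and 80.1 CPM and the TB spleen Tconv libraries 133 and 122 CPM. Again the tumour libraries lay lower without overlap, and Rgs14 fell by 0.45 ± 0.08 in Treg (adjusted p = 0.000317) and by 0.55 ± 0.08 in Tconv (adjusted p = 0.00012).

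Rgs10, a Gi regulator of little more than an Rgs domain, had 209 and 233 CPM in tumour Treg and 251 and 216 CPM in TB spleen Treg, which overlap (log2 -0.08 ± 0.08, adjusted p = 0.417). In Tconv it had 253 and 227 CPM in tumour and 188 and 190.1 CPM in TB spleen, with no overlap, and rose by 0.34 ± 0.08 (adjusted p = 0.00461). Rgs19, a palmitoylated Gi and Gz regulator, had 67.2 and 69.1 CPM in tumour Treg and 73.8 and 70.2 CPM in TB spleen Treg (log2 -0.08 ± 0.07, adjusted p = 0.329). Its tumour Tconv libraries had 71.3 and 66.8 CPM against 103 and 95.0 CPM in TB spleen, a fall by 0.52 ± 0.07 (adjusted p = 5.1e-05). Scaled by library size alone, which moves the median of all genes by -0.16 in the Treg comparison and -0.11 in the Tconv comparison, Rgs10 and Rgs19 were also called lower in tumour Treg, at a log2 fold change of -0.24 each (adjusted p = 0.0161 and 0.00558). That scaling takes the share of Treg calls that are higher from 53.3% to 39.9%, and of Tconv calls from 53.7% to 41.5%. No called member changed direction under library-size scaling, RLE size factors or DESeq2.

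Rgs18, known from platelets and megakaryocytes, did not pass the filter. It had 0 and 0 counts in tumour Treg, 0 and 2 in tumour Tconv, 2 and 3 in TB spleen Treg, 6 and 7 in TB spleen Tconv, 1 and 1 in normal spleen Treg and 2 and 0 in normal spleen Tconv. The 0 in tumour Treg allows up to 0.0653 CPM for the group, counting error only, and the highest group was TB spleen Tconv at 0.313 CPM. The 10 megakaryocyte and platelet markers summed to at most 380.4 CPM per library, nearly all of it Itgb3, an integrin that was highest in tumour Treg (364 CPM as a group mean). Of the others, Gp1ba was at 0.932 to 2.11 CPM and Itga2b at 0.173 to 1.28 CPM as group means. Pf4, Ppbp and Gp9 were each highest in TB spleen Treg, at 0.209, 0.374 and 0.289 CPM, and at 0 in both normal spleen groups. Per library, 0 to 7 of the 10 were at 0. Their part in the Rgs18 counts was not tested.

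**Figure D2:**
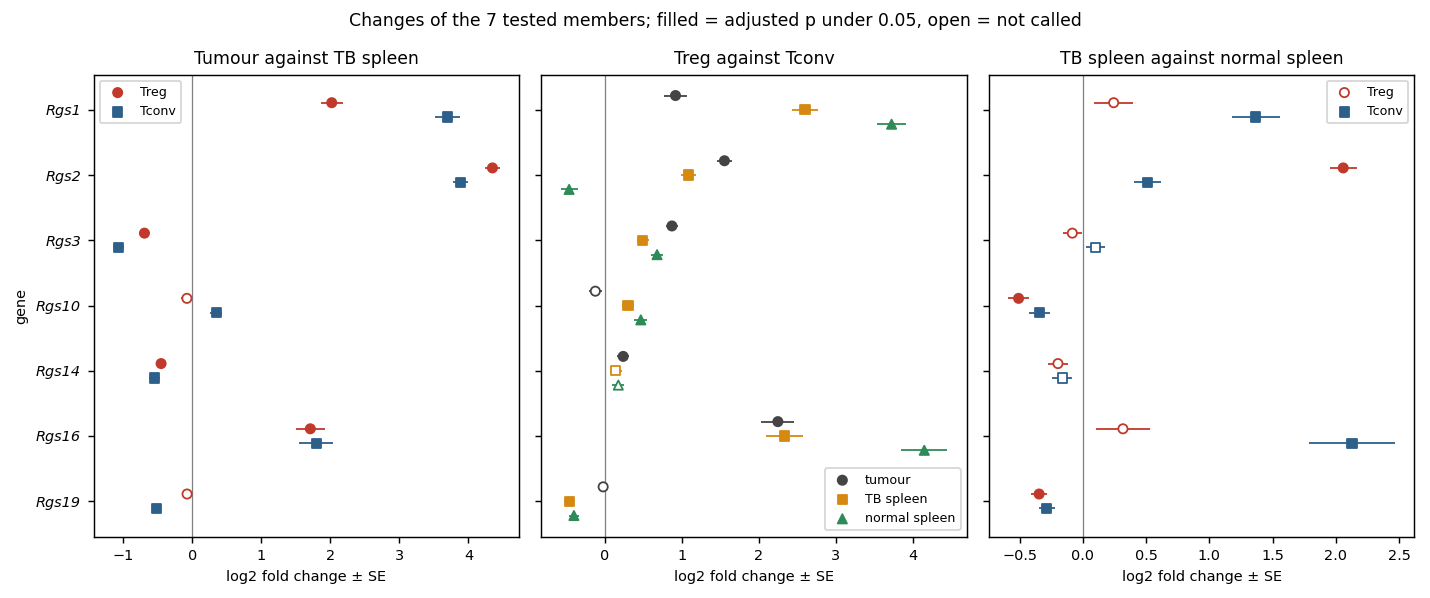
Log2 fold change (points) with SE (lines) of the 7 tested members in the 7 comparisons of 2 groups, on linear axes; filled points have an adjusted p under 0.05 and open points do not. Rgs2 lies near 4 on the log2 scale in both cell types between tumour and TB spleen, and in normal spleen it is the only gene beside Rgs19 that is called lower in Treg than in Tconv.

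The site change itself was compared between the cell types with an interaction term. The increase of Rgs1 was smaller in Treg than in Tconv by 1.68 ± 0.22 on the log2 scale (adjusted p = 0.000289). The change of Rgs19 was higher in Treg by 0.44 ± 0.09 (adjusted p = 0.00551), that of Rgs2 by 0.47 ± 0.14 (adjusted p = 0.0277) and that of Rgs3 by 0.38 ± 0.11 (adjusted p = 0.024). For Rgs10 the change was lower in Treg, at -0.42 ± 0.12 (adjusted p = 0.0203). The difference was 0.10 ± 0.11 for Rgs14 (adjusted p = 0.576) and -0.09 ± 0.32 for Rgs16 (adjusted p = 0.891), so the call was not made for either. Thus 3 members were called higher and 2 lower, beside 11.7% and 13.1% of all tested genes. The call for Rgs2 was lost without tumour Treg replicate 1, tumour Tconv replicate 2, TB spleen Treg replicate 2 or TB spleen Tconv replicate 1 (adjusted p 0.0656 to 0.112). That for Rgs3 was lost without tumour Treg replicate 1, tumour Tconv replicate 2, TB spleen Treg replicate 2 or TB spleen Tconv replicate 2 (0.0521 to 0.0932), and both were lost in a fit of only the groups compared (0.0737 and 0.0685). That for Rgs10 was lost without tumour Treg replicate 1, TB spleen Treg replicate 1 or either TB spleen Tconv library (0.0555 to 0.101), while those for Rgs1 and Rgs19 held under all 20 alternative settings.

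Treg were then compared with Tconv at each site. Rgs1 and Rgs16 were higher in Treg at all 3 sites, as was Rgs3, and Rgs2 changed sides between normal spleen and the other sites. In tumour 5 of 7 tested members were higher in Treg and 0 lower, beside 27.2% and 26.7% of all tested genes. In TB spleen 5 were higher and 1 lower, beside 21% and 19.4%, and in normal spleen 4 were higher and 2 lower, beside 21.8% and 18.7%. The members' median log2 fold change was 0.87 in tumour, 0.50 in TB spleen and 0.47 in normal spleen, and that of all tested genes 0.00 at each site.

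Rgs16 showed the largest Treg excess of the members in normal spleen, with 64.6 and 39.4 CPM in Treg and 3.52 and 2.38 CPM in Tconv. That is 17.7-fold (log2 4.15 ± 0.30, adjusted p = 3.05e-07). The excess was 5.04-fold in TB spleen (log2 2.33 ± 0.24, adjusted p = 7.3e-06) and 4.75-fold in tumour (log2 2.25 ± 0.22, adjusted p = 2.22e-06). No Treg library overlapped the Tconv libraries of its own site.

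Rgs1 had 160.1 and 195 CPM in normal spleen Treg and 14.9 and 12 CPM in normal spleen Tconv, a 13.2-fold excess (log2 3.72 ± 0.19, adjusted p = 1.27e-08). In TB spleen the excess was 6.06-fold (log2 2.60 ± 0.17, adjusted p = 1.34e-07). In tumour, where Tconv also had high levels, it was 1.89-fold (log2 0.92 ± 0.15, adjusted p = 0.000253). The Treg libraries were the higher ones at each site, without overlap.

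Rgs2 was lower in Treg than in Tconv of normal spleen, with 19.4 and 21.5 CPM against 26.2 and 29.9 CPM (log2 -0.46 ± 0.11, adjusted p = 0.00523). In TB spleen it was higher in Treg by 1.09 ± 0.10 (adjusted p = 3.31e-06) and in tumour by 1.56 ± 0.10 (adjusted p = 4.27e-08). The normal spleen call was lost without normal spleen Treg replicate 1 (adjusted p = 0.0582) or normal spleen Tconv replicate 2 (adjusted p = 0.0638), with the sign kept.

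Rgs3 was higher in Treg by 0.87 ± 0.08 in tumour (adjusted p = 1.27e-06), 0.50 ± 0.07 in TB spleen (adjusted p = 0.000173) and 0.68 ± 0.07 in normal spleen (adjusted p = 1.28e-05). Rgs19 was lower in Treg by -0.46 ± 0.07 in TB spleen (adjusted p = 0.000132) and -0.40 ± 0.07 in normal spleen (adjusted p = 0.000365), while in tumour the difference was -0.02 ± 0.07 (adjusted p = 0.862). Rgs10 was higher in Treg of normal spleen, at 335 and 331 CPM against 242 and 238 CPM (log2 0.47 ± 0.08, adjusted p = 0.000598).

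In TB spleen Rgs10 was higher in Treg by 0.31 ± 0.08 (adjusted p = 0.0107), a call lost without TB spleen Treg replicate 1 (adjusted p = 0.139) or TB spleen Tconv replicate 1 (adjusted p = 0.0574), and in tumour its difference was -0.12 ± 0.08 (adjusted p = 0.256). Rgs14 was higher in tumour Treg by 0.24 ± 0.08 (adjusted p = 0.021), which was not called without tumour Treg replicate 1 (adjusted p = 0.0683) or tumour Tconv replicate 2 (adjusted p = 0.256), or in a fit of only the groups compared (adjusted p = 0.0797). In TB and normal spleen its difference was 0.15 ± 0.08 (adjusted p = 0.163) and 0.18 ± 0.08 (adjusted p = 0.0862), and scaling by library size alone brought both past the threshold (adjusted p = 0.0476 and 0.0199). A filter of at least 1 CPM in all 12 libraries (adjusted p = 0.0417) and a fit of only the groups compared (adjusted p = 0.00488) did so for normal spleen.

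**Figure D3:**
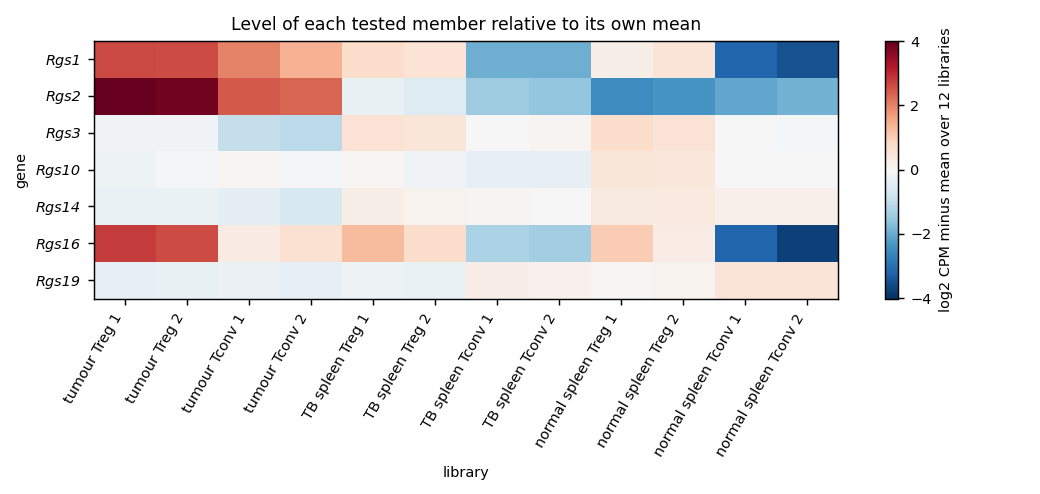
Log2 CPM of the 7 tested members in each of the 12 libraries minus the mean of that gene over the 12 libraries, as a colour scale from blue (lower) to red (higher). Rgs1, Rgs2 and Rgs16 span the widest range, while Rgs10, Rgs14 and Rgs19 stay close to their own means, with a highest group mean 1.76, 1.86 and 1.77 times the lowest.

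The presence of a tumour was compared in the spleen, where TB spleen libraries also served as the reference for the tumour and so share samples with that comparison. Rgs2 was higher in TB than in normal spleen for both cell types, and Rgs1 and Rgs16 were called higher in Tconv. Rgs10 and Rgs19 were lower in both cell types. In Treg 1 member was higher and 2 lower, beside 6.8% and 8.5% of all tested genes. In Tconv 3 were higher and 2 lower, beside 9.74% and 7.49%. Other RNA also differed between these libraries. The 8 NK and CD8 T cell markers summed to 130 to 184 CPM in TB spleen Tconv. In normal spleen Tconv they summed to 96.1 to 100.3 CPM. These markers did not move together: of 6 tested in Tconv, 2 were called higher and 1 lower in TB spleen. As group means, Klrb1c was highest in TB spleen Tconv at 57.9 CPM, but below Eomes (23.5 CPM) in normal spleen Tconv. Cd8b1 was highest in normal spleen Tconv at 30.7 CPM, but below Eomes (21.3 CPM) in TB spleen Tconv. The macrophage and monocyte markers summed to 14.1 to 21.3 CPM in TB spleen Treg and 8.83 to 10.5 CPM in normal spleen Treg. Immediate early and stress genes summed to 4157 CPM in TB spleen Treg replicate 1 and 4367 CPM in TB spleen Tconv replicate 1, against 2790 and 2455 CPM in replicates 2 and 2474 to 3141 CPM in normal spleen. The part of these in the spleen results was not tested.

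Rgs2 in spleen Treg went from 19.4 and 21.5 CPM in normal mice to 91.9 and 78.3 CPM in TB mice, a 4.17-fold difference (log2 2.06 ± 0.11, adjusted p = 5.06e-07). Of the 8664 better-counted genes 8 had a larger increase, and of all 13509 tested genes 355. In spleen Tconv it went from 26.2 and 29.9 CPM to 41.9 and 38.2 CPM (log2 0.51 ± 0.11, adjusted p = 0.00727). Neither pair of groups overlapped. The Treg change exceeded the Tconv change by 1.55 ± 0.15 (adjusted p = 0.000266), and this was the only member called in that interaction, beside 0.222% of tested genes called higher and 0.629% lower.

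Rgs1 in spleen Tconv rose 2.58-fold in TB mice (log2 1.37 ± 0.19, adjusted p = 0.000627), while in Treg the change was 0.24 ± 0.15 (adjusted p = 0.322). The interaction was -1.12 ± 0.24 (adjusted p = 0.0622). Rgs16 in spleen Tconv rose 4.37-fold (log2 2.13 ± 0.34, adjusted p = 0.00163), with 0.32 ± 0.21 in Treg (adjusted p = 0.347) and an interaction of -1.81 ± 0.41 (adjusted p = 0.0702). Both interactions missed the threshold here and passed it under DESeq2 (adjusted p = 0.0189 for Rgs1 and 0.00465 for Rgs16).

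Rgs10 fell in TB spleen Treg by 0.51 ± 0.08 (adjusted p = 0.00221) and in TB spleen Tconv by 0.34 ± 0.08 (adjusted p = 0.0155). Rgs19, at 88.9 and 94.0 CPM in normal spleen Treg and 120.0 and 121 CPM in normal spleen Tconv, fell by 0.35 ± 0.07 (adjusted p = 0.00527) and 0.29 ± 0.07 (adjusted p = 0.0121). Rgs3 and Rgs14 had log2 fold changes between -0.20 and 0.10 in these comparisons, with adjusted p of at least 0.108, although Rgs14 was called lower in TB spleen Treg in a fit of only the groups compared (adjusted p = 0.0276). In Tconv the call for Rgs10 was lost without any of the 4 libraries compared (adjusted p 0.0624 to 0.0895), that for Rgs19 without any of them but TB spleen Tconv replicate 1 (0.0668 to 0.0911), and that for Rgs2 without TB spleen Tconv replicate 1 (0.066) or normal spleen Tconv replicate 1 (0.0814). In Treg that for Rgs19 was lost without TB spleen Treg replicate 2 (adjusted p = 0.0622) or normal spleen Treg replicate 2 (adjusted p = 0.0716).

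Group means of Rgs1 ran from 852 ± 15.2 CPM (SD, n = 2) in tumour Treg through 450.4 ± 128 in tumour Tconv, 210.3 ± 15 in TB spleen Treg, 178 ± 24.9 in normal spleen Treg and 34.7 ± 0.0129 in TB spleen Tconv to 13.5 ± 2.06 in normal spleen Tconv. No neighbouring groups overlapped, although the difference between TB and normal spleen Treg was not called. Rgs2 ran from 1732 ± 114 CPM in tumour Treg to 20.4 ± 1.45 in normal spleen Treg, an 84.8-fold span with no neighbouring groups that overlapped. For Rgs16 the span was 71.8-fold, from 212 ± 20.7 CPM in tumour Treg to 2.95 ± 0.800 in normal spleen Tconv, and normal spleen Treg overlapped TB spleen Treg and tumour Tconv, which did not overlap each other. Rgs10 was highest in normal spleen Treg (333 ± 2.83 CPM) and lowest in TB spleen Tconv (189 ± 1.28), and each of the 4 groups in between overlapped its neighbours among them.

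Compared between genes per kilobase of the longest protein-coding transcript, Rgs10 had the highest level of the 8 members in all 4 spleen groups and in tumour Tconv, from 215 CPM per kb in TB spleen Tconv to 378 in normal spleen Treg. In tumour Treg Rgs2 led with 573 ± 37.9 CPM per kb, followed by Rgs10 with 251 ± 19.3 and Rgs1 with 222 ± 3.96. In normal spleen Treg the level of Rgs2 was 6.76 ± 0.479 CPM per kb, the lowest of the 7 tested members. The order depends on the length taken. The longest protein-coding transcript of Rgs10 has 880 bp and its merged exons 1711 bp, and those of Rgs2 3021 and 3627 bp. Per kilobase of merged exons, Rgs2 would stand above Rgs10 in tumour Tconv.

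The genes whose log2 CPM followed each member most closely over the 12 libraries were found among 8379 tested genes by Pearson's r, given as a description since the 12 libraries are 6 groups and share scaling. For Rgs2 they were Rell1 (r = 0.996), Aebp2 (0.989) and Stat3 (0.983). For Rgs1 they were Frmd4b (0.990), Ttc39b (0.985) and Rnf19b (0.985), and for Rgs16 Dennd5a (0.987), Prrc2b (0.984) and Syne3 (0.983). Those of Rgs3 were Fbxo22 (0.986), Zbtb7a (0.986) and Zfp41 (0.984), those of Rgs14 Pias4 (0.988), Tmc8 (0.987) and Irak4 (0.976), and those of Rgs19 Cnot8 (0.979), Cdc42se1 (0.974) and Mrpl12 (0.970). Those given for Rgs10 were less close, Itgb1 (0.897) and Tmco3 (0.857).

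Of 16 further genes with Rgs names in the table, 6 passed the filter (Rgs8, Rgs9, Rgs9bp, Rgs11, Rgs12 and Rgs17). Rgs9, known from photoreceptors and striatum, was a Treg gene at every site, at 23.2 ± 0.448 CPM (SD, n = 2) in tumour Treg, 22.4 ± 1.16 in TB spleen Treg and 17.6 ± 1.45 in normal spleen Treg, against 0.524 to 1.14 CPM in Tconv. Its log2 fold change between Treg and Tconv was 4.35 ± 0.22 in tumour, 4.33 ± 0.22 in TB spleen and 5.07 ± 0.25 in normal spleen (adjusted p at most 1.83e-08). Between tumour and TB spleen it changed by 0.05 ± 0.16 in Treg (adjusted p = 0.803). Rgs12, a relative of Rgs14, rose in tumour Treg by 0.96 ± 0.22 (adjusted p = 0.00224) and in tumour Tconv by 0.80 ± 0.23 (adjusted p = 0.0121). Rgs17 was at 0 in all 8 spleen libraries and at 1.66 and 2.06 CPM in tumour Treg and Tconv, at least 26.5-fold and 28.5-fold higher against 3 counts over the spleen group.

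Genes that act with Rgs proteins were counted in the same fit, and each count for tumour against TB spleen stands beside 32.8% higher and 28.7% lower among all tested genes in Treg and 26.4% and 22.8% in Tconv. Alpha subunits are the direct substrates: of 11 tested, 6 rose and 3 fell in tumour Treg, and 4 rose and 2 fell in tumour Tconv. The largest changes were those of Gna15, a Gq-class subunit of blood cells (log2 1.90 ± 0.17 in Treg and 1.28 ± 0.19 in Tconv), and Gna13, a subunit of the class that binds Rgs-like exchange factors (1.52 ± 0.07 and 1.06 ± 0.07). Gnaq, the substrate class of Rgs2, was higher in Treg than in Tconv by 1.39 ± 0.10 in tumour, 1.63 ± 0.10 in TB spleen and 2.13 ± 0.11 in normal spleen, while its site change was -0.16 ± 0.09 in Treg (adjusted p = 0.156). Against Tconv, 7 alpha subunits were higher in Treg and 0 lower in tumour, 4 and 0 in TB spleen, and 4 and 1 in normal spleen, beside 27.2% and 26.7%, 21% and 19.4%, and 21.8% and 18.7% of all tested genes.

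Beta and gamma subunits, which pair with the alpha subunit and signal on their own once released, rose in 8 of 10 tested genes in tumour Treg and fell in 0, but in tumour Tconv 3 rose and 1 fell. Gnb4 rose by 1.70 ± 0.14 in Treg and by 0.58 ± 0.16 in Tconv, and Gng12 by 1.53 ± 0.17 and 0.87 ± 0.18. In the interaction 5 of 10 had a higher site change in Treg and 0 a lower one (11.7% and 13.1% of all tested genes), with Gnb4 at 1.12 ± 0.21 (adjusted p = 0.00277). In tumour 9 of 10 were higher in Treg than in Tconv and 0 lower, where 27.2% and 26.7% of all tested genes were. The list's median change was 0.54 in tumour Treg and 0.10 in tumour Tconv.

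Receptors start the signal that Rgs proteins end. Of 35 G protein coupled receptors of lymphocytes, 21 rose and 8 fell in tumour Treg and 15 rose and 9 fell in tumour Tconv. In Treg the chemokine receptors Cxcr6 (log2 4.32 ± 0.19) and Ccr2 (2.79 ± 0.25) were among those with the largest changes. In Tconv they were Ccr8 (3.41 ± 0.16), the lysophospholipid receptor P2ry10 (2.98 ± 0.08) and Lpar5, a lysophosphatidic acid receptor (-2.92 ± 0.16). Cxcr6 fell in tumour Tconv by 0.91 ± 0.14, and its site change differed between the cell types by 5.23 ± 0.23 (adjusted p = 1.26e-07).

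Receptor kinases and arrestins shut off the receptor. Of 7 tested, 1 rose and 2 fell in tumour Treg (32.8% and 28.7% of all tested genes) and 0 rose and 2 fell in tumour Tconv (26.4% and 22.8%). Grk6 was lower in Treg than in Tconv by -1.01 ± 0.06 in tumour, -0.63 ± 0.06 in TB spleen and -0.70 ± 0.06 in normal spleen. Of 11 other G protein regulators, 2 rose and 6 fell in tumour Treg, and 3 rose and 3 fell in tumour Tconv. Gpsm2, a GoLoco protein, rose by 1.45 ± 0.12 and 0.57 ± 0.11, and Axin2, which has an Rgs-like domain and acts in Wnt signalling, fell by 1.39 ± 0.11 and 0.66 ± 0.10.

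Of 23 tested effectors of Gq and Gi, 6 rose and 6 fell in tumour Treg, and 6 rose and 4 fell in tumour Tconv. Adenylyl cyclase gene Adcy6, whose product Gi inhibits, was lower in Treg than in Tconv at every site, by -2.65 ± 0.12 in tumour, -1.88 ± 0.11 in TB spleen and -1.21 ± 0.11 in normal spleen. Phospholipase gene Plcb4, a Gq effector, was higher in Treg by 2.49 ± 0.15 in TB spleen and 2.29 ± 0.16 in normal spleen, and rose in tumour Tconv by 0.86 ± 0.16. All of these named changes without a printed p had an adjusted p of at most 0.00918 in edgeR's quasi-likelihood test.

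**Figure D4:**
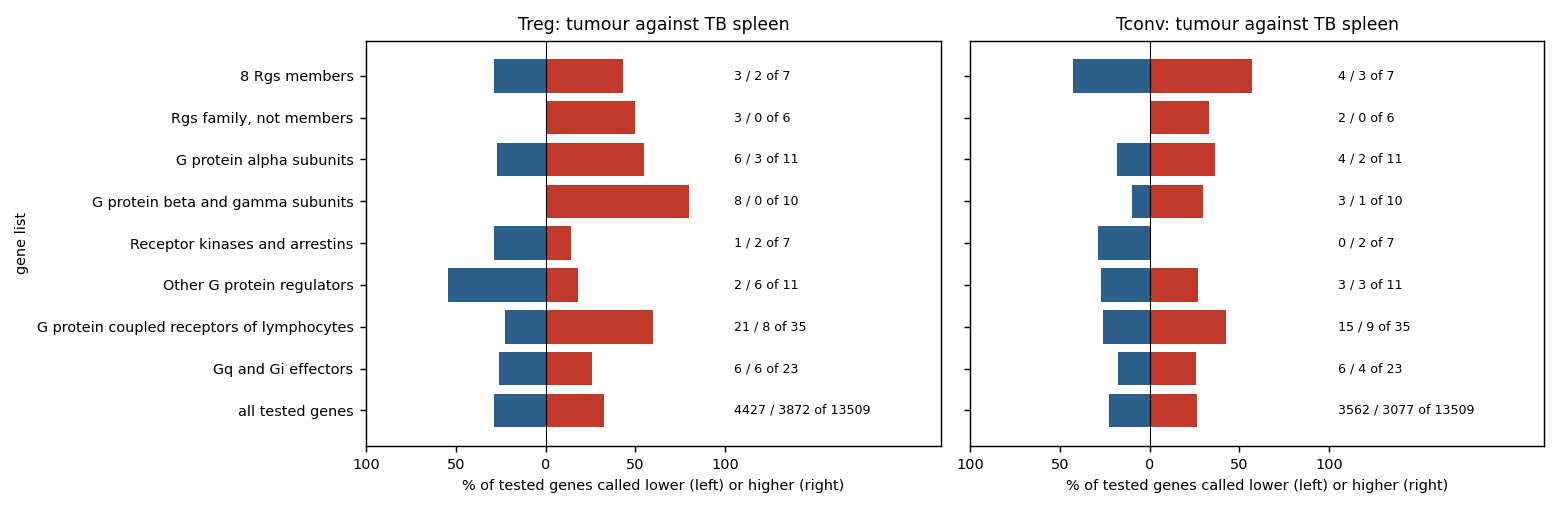
Percent of the tested genes of each list called higher (red, right) or lower (blue, left) in tumour than in TB spleen, for Treg and Tconv, with the counts higher / lower of tested printed beside each bar. The last bar gives all 13509 tested genes, of which 4427 rose and 3872 fell in Treg, and the beta and gamma subunits stand at 8 of 10 higher in Treg and 3 of 10 in Tconv.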

How the data were processed

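The deposited table holds raw read counts per gene for 12 libraries, with no scaling by the authors; per the labels' protocols the RNA came from a micro column kit and the libraries from a stranded mRNA kit on a NextSeq500, and per the submitters' processing notes STAR, featureCounts and mm10 were used, with no versions or strand setting given. Groups and replicate numbers come from the sample titles. The counts went into edgeR 4.0.16 (R 4.3.3). filterByExpr kept 13509 of 24062 genes, TMM factors were 0.942 to 1.07, and a single quasi-likelihood model held all 6 group means (6 residual degrees of freedom). The 7 comparisons between groups and the 2 interactions were two-sided, p-values were adjusted by Benjamini-Hochberg across the genes tested, and a call is an adjusted p under 0.05. An SE is the log2 fold change divided by the square root of F. CPM values are TMM-scaled, and a floor is 3 counts.

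All 8 members are named. For each other list the text gives counts and, per comparison, up to 3 called genes with the largest change and a mean log2 CPM of at least 3, and for each member the 3 genes of highest Pearson r, passing over unnamed gene models. Of the other genes with Rgs names, Rgs9, Rgs12 and Rgs17 are given by their values and Rgs8, Rgs13, Rgs21 and Rgsl1 by their counts. Values of the rest, and test results of Rgs8, Rgs9bp and Rgs11, are not reported here. Gnaq, Cxcr6, Adcy6, Plcb4 and Grk6 fell under the rule in at least 1 comparison, and their values in others were added after they were seen. A few genes under this rule are not reported here. The members and all gene lists were chosen with earlier results of these data known. All 262 list genes were in the table (4 by synonym). Promoter sequences are from RefSeq (GRCm38.p6) and gene models from GENCODE M21. Same-group libraries differed by more than sampling noise (chi-square per gene 3.56 to 17.0), so none was taken for a library deposited more than once; this does not show separate animals. The code was tested on simulated data. Alternatives were DESeq2 1.42.0, limma-voom (limma 3.58.1), 2 other scalings, 2 other filters, a replicate block, fits of only the groups compared, and leaving out each library.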

Additional observations from a re-analysis of the deposited data

Results flagged for a closer look

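By the interaction test, the change between tumour and TB spleen differed between Treg and Tconv for 5 members. As Treg minus Tconv on the log2 scale, the differences were -1.68 for Rgs1, 0.47 for Rgs2, 0.38 for Rgs3, -0.42 for Rgs10 and 0.44 for Rgs19. Of all tested genes, 11.7% were called higher and 13.1% lower in this interaction. The calls for Rgs2, Rgs3 and Rgs10 were each lost under some alternative settings, while those for Rgs1 and Rgs19 held under all 20. Rgs1 rose in both cell types, from a level in TB spleen that was already 6.06-fold higher in Treg. Rgs10 and Rgs19 were called in Tconv alone under TMM scaling. For Rgs2 the change between normal and TB spleen also differed, by 1.55 in the same direction, and its Treg level went from below that of Tconv in normal spleen to above it in TB spleen.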

How the results depend on the processing

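Of 63 member results (7 tested members in 9 comparisons), 42 kept their direction and their side of the threshold under all 20 alternative settings. In TB against normal spleen for Tconv, 5 members were called, and 2 to 5 with a library left out. In the interaction of the site change 5 were called, 3 in a fit of only the groups compared, and 2 to 5 with a library left out. In the interaction of the tumour-bearing change in spleen 1 was called, 2 with library-size scaling, and 3 with no filter on low counts, at least 1 CPM in all 12 libraries, the replicate block, only the groups compared or DESeq2, and 1 to 3 with a library left out; the added members were Rgs1 and Rgs16. The cause was not tested. Direction changed only for members that were not called. With a library left out, Rgs10 in tumour against TB spleen Treg ran from -0.185 to 0.0286, Rgs19 in tumour Treg against Tconv from -0.0751 to 0.00302, Rgs14 from -0.0238 to 0.192 in the site interaction and from -0.0984 to 0.0312 in the spleen interaction, and Rgs16 in the site interaction from -0.332 to 0.216. Rgs19 in tumour Treg against Tconv also turned to 0.00489 with at least 1 CPM in all 12 libraries and to 0.0256 in only the groups compared.

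Over all genes, 2066 were called in TB against normal spleen Treg, 3670 in only the groups compared, and down to 512 with a library left out. In Tconv 2328 were called, and down to 751 with a library left out. In the site interaction 3337 were called, and 2161 without TB spleen Treg replicate 1. In the spleen interaction 115 were called, 184 with no filter, 320 in only the groups compared, 211 with DESeq2, and 42 to 221 with a library left out. Library-size scaling moved the share of higher calls in TB against normal spleen from 44.4% to 66.5% in Treg and from 56.5% to 78.5% in Tconv.

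Deviations of same-numbered libraries of TB mice correlated at r from -0.15 to 0.26, highest for TB spleen Treg with TB spleen Tconv, and not over 0.1 for every pair; no source says that a number marks a mouse, so the numbers were not taken as pairs. With the replicate block, Rgs14 in Treg against Tconv of normal spleen was also called (adjusted p = 0.0441), as were Rgs1 (adjusted p = 0.0212) and Rgs16 (adjusted p = 0.0484) in the spleen interaction, and no other member call changed. With 2 libraries a group, the SD of a single group is itself uncertain, and Rgs18 was too low to test at this depth.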

Other observations

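The signalling lists were also counted in the spleen of TB against normal mice, where 6.8% of all tested genes were higher and 8.5% lower in Treg and 9.74% and 7.49% in Tconv. Of 35 lymphocyte G protein coupled receptors, 10 were higher and 6 lower in TB Treg, and 13 were higher and 6 lower in TB Tconv. Ccr8 rose in Treg by 1.27 ± 0.12 on the log2 scale (edgeR adjusted p = 5.35e-05) and in Tconv by 1.99 ± 0.27 (adjusted p = 0.000519). P2ry10 rose in Treg by 1.07 ± 0.07 (adjusted p = 4.39e-06). The orphan receptor gene Gpr83 and the lysophosphatidylserine receptor gene Gpr34 had a lower change in Treg than in Tconv, at -1.08 ± 0.16 (adjusted p = 0.00585) and -1.04 ± 0.16 (adjusted p = 0.00824).

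Among 11 alpha subunits, 2 were higher and 1 lower in each cell type of TB spleen. Gnaq rose by 0.32 ± 0.09 in Treg (adjusted p = 0.0387) and by 0.82 ± 0.12 in Tconv (adjusted p = 0.000771). Of 10 beta and gamma subunits, 2 were higher and 2 lower in Treg, and 1 was higher and 2 lower in Tconv. Gng2 rose in Treg by 0.42 ± 0.10 (adjusted p = 0.0145) and in Tconv by 0.68 ± 0.10 (adjusted p = 0.000994). Of 23 effectors, 2 were higher and 3 lower in Treg, and 4 were higher and 2 lower in Tconv. Adcy6 fell in Treg by 0.65 ± 0.11 (adjusted p = 0.00318), and Rasgrp2, a Rap activator, fell by 0.58 ± 0.07 in Treg (adjusted p = 0.000369) with a change of -0.02 ± 0.07 in Tconv (adjusted p = 0.899). The difference between these Rasgrp2 changes was -0.56 ± 0.10 (adjusted p = 0.0195).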
